A study of Homo sapiens with 10 samples.

Results

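Genes whose annotated span reaches 200 kb were described here from peak lists of RNA polymerase II and of 4 proteins that act on its release from promoters. They were all protein-coding genes of chromosomes 1 to 22 in the GENCODE annotation of hg19 (GRCh37) with a span of at least 200000 bp, chosen on length alone, and there were 1439 of them among 19222 coding genes (7.49%). The comparison group was the 4693 coding genes of 20 to 50 kb. The series consists of 10 chromatin immunoprecipitation libraries of the line HCT116, which was established from a human colorectal carcinoma, with 1 library for each antibody and no treatment named in the labels. The peak lists of KAP1, Cdk9, Hexim1, Larp7 and total Pol II were used. Those for Ser5P Pol II, for the histone marks H3K27ac, H3K4me1 and H3K4me3, and for the input DNA were not analysed here. Chromatin was crosslinked in 1% formaldehyde for 10 min and sonicated for 50 min. There is no replicate of any library, so no value below has a replicate check. The 95% intervals cover counting error only, and the read depth behind the lists is unknown.

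The labels call the cells colonic endothelial cells, whereas the line comes from an epithelial tumour. A Pol II peak lay within 1 kb of the 5′ end of 12 of 18 colon epithelium marker genes, among them CDH1, CDX2, KRT19 and FERMT1. The same held for 9 of 17 endothelium marker genes, among them ERG, FLT1, SOX17, SOX18, ESAM and MMRN2, whereas CDH5, KDR, TEK and VWF had none. The colon genes VIL1, KRT20, LGALS4 and GPA33 also had none, so the presence of a promoter peak does not separate the 2 cell types. Over all coding genes 71.8% of promoters had such a peak, so both lists were below this level, and PECAM1 was not matched to the annotation. The Pol II folds were 97.6 at CDH1, 100.2 at CDX2, 83.0 at KRT19 and 104.3 at FERMT1. At the colon genes EPCAM, CDX1 and CLDN4 they were 5.18, 8.33 and 3.97. Folds of 7.38, 10.55 and 7.02 were at ERG, FLT1 and SOX17, but 72.25, 92.45 and 86.1 at SOX18, ESAM and MMRN2.

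Pol II usually stalls shortly after it starts and needs the kinase P-TEFb, whose catalytic subunit is Cdk9, to go on into the gene. P-TEFb is held inactive in the 7SK ribonucleoprotein, of which Larp7 is the RNA-binding core protein and Hexim1 the kinase inhibitor, and KAP1 (TRIM28) is a chromatin-bound co-regulator that can carry the 7SK particle to promoters. Genes of great length are mostly introns, often code for proteins of neurons, synapses and cell adhesion, include the genes at common fragile sites, and tend to use several alternative promoters.

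The promoters of the longest genes fell into kinds that are visible in their sequence. The following lines give the 250 bases directly upstream of the annotated 5′ end of 3 of the 4 longest genes with all 5 proteins at the promoter, and then of the 3 longest genes with none of the 5 at any annotated start of their own. They were read from GRCh37, 5′ to 3′ on the gene's strand, with every CG dinucleotide in capitals. RBFOX1 (chr16:5289553-5289802, plus strand), a neuronal splicing regulator, CNTNAP2 (chr7:145812844-145813093, plus strand), a neurexin-family adhesion protein, and MACROD2 (chr20:13975765-13976014, plus strand), an ADP-ribose hydrolase, carry 34, 15 and 26 CG dinucleotides.
RBFOX1: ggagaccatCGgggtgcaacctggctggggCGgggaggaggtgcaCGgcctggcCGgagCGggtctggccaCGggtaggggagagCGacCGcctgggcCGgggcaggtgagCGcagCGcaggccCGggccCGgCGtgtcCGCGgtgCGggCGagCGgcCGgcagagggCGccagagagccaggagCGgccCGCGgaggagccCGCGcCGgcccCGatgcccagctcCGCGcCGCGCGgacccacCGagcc
CNTNAP2: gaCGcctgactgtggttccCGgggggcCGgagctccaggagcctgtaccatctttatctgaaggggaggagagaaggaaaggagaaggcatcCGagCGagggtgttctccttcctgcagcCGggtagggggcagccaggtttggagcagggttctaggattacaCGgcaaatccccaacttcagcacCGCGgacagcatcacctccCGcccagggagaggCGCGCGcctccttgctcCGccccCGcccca
MACROD2: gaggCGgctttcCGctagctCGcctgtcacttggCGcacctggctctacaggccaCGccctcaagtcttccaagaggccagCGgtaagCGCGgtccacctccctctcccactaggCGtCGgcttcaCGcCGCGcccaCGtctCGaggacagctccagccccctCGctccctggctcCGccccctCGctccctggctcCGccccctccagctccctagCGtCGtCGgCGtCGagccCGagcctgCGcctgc
EYS (chr6:66417120-66417369, minus strand), a protein of photoreceptors, CDH12 (chr5:22853454-22853703, minus strand), a neuronal cadherin, and NCKAP5 (chr2:134326035-134326284, minus strand) carry 0, 10 and 4.
EYS: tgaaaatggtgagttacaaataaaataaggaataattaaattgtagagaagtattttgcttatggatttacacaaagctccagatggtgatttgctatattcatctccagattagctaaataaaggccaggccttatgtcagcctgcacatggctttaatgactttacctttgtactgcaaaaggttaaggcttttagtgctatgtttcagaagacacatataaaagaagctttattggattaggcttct
CDH12: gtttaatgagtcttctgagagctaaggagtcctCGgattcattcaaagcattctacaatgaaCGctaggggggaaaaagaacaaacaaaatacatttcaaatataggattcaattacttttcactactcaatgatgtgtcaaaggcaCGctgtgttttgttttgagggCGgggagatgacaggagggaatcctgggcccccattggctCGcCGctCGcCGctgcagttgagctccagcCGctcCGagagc
NCKAP5: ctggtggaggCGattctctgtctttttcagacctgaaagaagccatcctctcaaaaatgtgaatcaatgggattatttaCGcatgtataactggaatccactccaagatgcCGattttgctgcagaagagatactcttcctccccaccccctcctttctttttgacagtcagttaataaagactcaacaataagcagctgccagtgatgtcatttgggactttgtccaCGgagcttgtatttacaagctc

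Promoters with all 5 lists were richer in CG than promoters with none, although single genes depart from this: CDH12 has 10 CG dinucleotides and a GGGCGG in the bases shown, against a median of 2 CG at long genes with none. The median ratio of observed to expected CG over the 2 kb around the 5′ end was 0.753 at the 977 long genes with all 5 proteins and 0.206 at the 241 with none. The median GC content of the same windows was 59.4% and 39.0%. The hexamer GGGCGG, read on both strands of the 250 upstream bases, was in 69.6% of the first group and 4.56% of the second, against 48.9% of all coding promoters. The TATA-type hexamer TATAAA was in 5.02% and 21.6%, against 10.1% of all coding promoters. The AP-1 type sequence TGANTCA was in 2.25% and 12.0%, against 5.45% of all. The same contrast was present in genes of 20 to 50 kb: where none of the 5 was at the promoter, GGGCGG was in 7.75%, TATAAA in 24.05% and TGANTCA in 10.6%. A match describes the letters of the window and not a bound site.

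The long genes varied widely in size. Their median length was 319256 bp, 310 spanned at least 500 kb and 67 at least 1 Mb, and the longest was RBFOX1 with 2473540 bp. They covered 589.3 Mb of the genome, 106 overlapped another gene of the group, and 1033 overlapped no other coding gene. Among the long genes 37 are known only by an identifier. Genes of the group had a median of 9 annotated transcript starts of their own, against 6 in the genes of 20 to 50 kb. Chromosome 18 had the highest share of long genes (16.2% of its coding genes) and chromosome 19 the lowest (0.338%).

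Long genes carried peaks at their 5′ ends about as often as short ones. A promoter was the 1 kb on each side of the annotated 5′ end, and a protein was counted there when a peak of its list overlapped it by at least 1 bp. Pol II was present at 75.3% of long genes (95% interval of the difference from genes of 20 to 50 kb, −3.25 to 1.83 percentage points) and at 75.9% of the shorter ones, with 71.8% over all coding genes. KAP1 was at 71.9% and 68.6%, a difference of 3.22 points (0.504 to 5.85), with 66.2% over all coding genes. Larp7 was at 79.8% and 79.6%, a difference of 0.148 points (−2.28 to 2.46), with 76.4% over all. Hexim1 alone of the 5 was less frequent at long genes beyond its interval, 80.8% against 83.6% (−5.13 to −0.539 points), with 79.9% over all. Cdk9 was at 75.2% and 73.5%, a difference of 1.70 points (−0.913 to 4.21), with 70.5% over all.

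None of these differences passed 4 points, and their signs were not stable. Peaks of −log10 q of at least 5 gave a Larp7 difference of 9.11 points, a Hexim1 difference of 1.97, a KAP1 difference of −5.31 and a Cdk9 difference of −5.17. When every list was limited to its 20000 peaks of highest −log10 p, 47.3% of long genes and 61.2% of genes of 20 to 50 kb had Pol II, a difference of −13.96 points.

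Compared with genes of 20 to 50 kb, long genes more often had all 5 proteins and more often none at the annotated 5′ end. All 5 proteins were at the promoter of 67.9% of long genes and 63.9% of genes of 20 to 50 kb, a difference of 4.03 points (1.22 to 6.77), with 61.5% over all coding genes. None of the 5 was at 16.7% and 13.5%, a difference of 3.28 points (1.18 to 5.51), with 17.2% over all, so the share with none was near that of all coding genes. Partial sets were few. Pol II, Larp7, Hexim1 and Cdk9 without KAP1 was the most frequent, at 37 long genes (2.571%), against 3.496% over all coding genes. KAP1, Larp7, Hexim1 and Cdk9 without Pol II came next at 29 (2.015%), against 2.045% over all. Where Pol II was present at a long gene, KAP1 was there too in 91.9%, Larp7 in 97.5%, Hexim1 in 99.0% and Cdk9 in 94.5%. In genes of 20 to 50 kb these shares were 86.9%, 94.9%, 98.5% and 90.7%.

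Within the long genes, occupancy at the 5′ end was lower in the longest. All 5 proteins were at 69.1% of genes of 200 to 500 kb, 65.0% of genes of 500 kb to 1 Mb and 58.2% of genes of 1 Mb or longer. The share with none was 15.2%, 21.4% and 25.4%. The intervals of the last class, which has 67 genes, are wide.

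**Figure D1:**
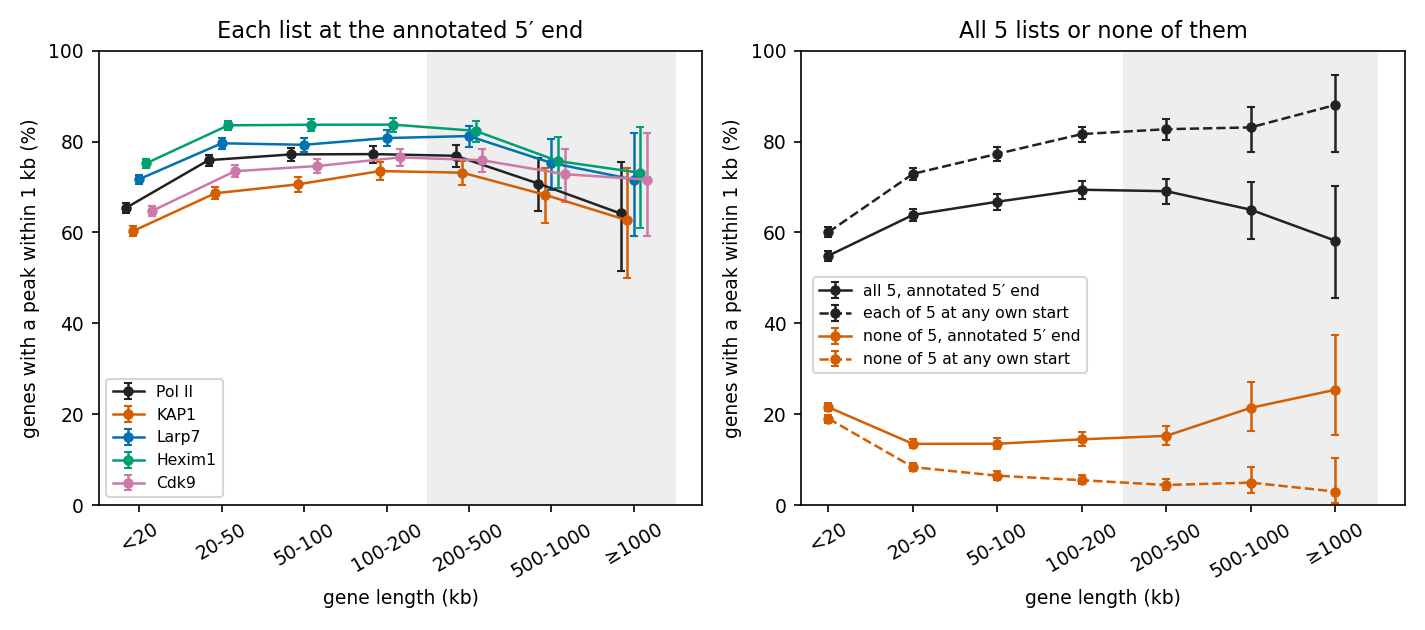
Share of genes with a peak within 1 kb of the annotated 5′ end (left, 5 lists; right, all 5 or none, solid lines) or of any annotated start of the gene (right, dashed lines), by gene length in kb, with 95% Clopper-Pearson intervals; the grey area marks genes of 200 kb or longer. The share with all 5 at the 5′ end falls from 69.1% to 58.2% across the grey area, while each of the 5 at any own start rises from 82.7% to 88.1%.

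Where the annotated 5′ end of a long gene lacked Pol II, another of its own starts often had it. Among the 356 long genes without Pol II at the 5′ end, 202 (56.7%, 51.4 to 62.0) had Pol II at another of their own starts, against 314 of 1130 (27.8%, 25.2 to 30.5) in genes of 20 to 50 kb. Counted at any own start, Pol II was at 89.3% of long genes and 82.6% of shorter ones, KAP1 at 86.7% and 77.0%, and Hexim1 at 94.6% and 89.6%. Every list was then more frequent at long genes than at genes of 20 to 50 kb, by 5.07 to 9.76 points. This included Pol II and Hexim1, which were lower at the 5′ end. Only 64 long genes (4.45%) had no peak of any list at any start, against 8.35% of genes of 20 to 50 kb and 11.9% of all coding genes. Long genes have more starts to count, and a single start was less often occupied: over 17353 distinct starts of long genes 40.1% had Pol II, against 66.8% of 36561 starts of genes of 20 to 50 kb. Neighbouring starts share windows, so these are not independent values.

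The fold of promoter peaks differed between the length classes mainly for Pol II. The deposited fold of a peak over its background had a median of 23.9 (quartiles 7.25 and 56.2) at the 1083 long promoters with Pol II and of 43.1 (17.4 and 71.1) at the 3563 of 20 to 50 kb. Over all coding promoters with Pol II the median was 39.6. The median KAP1 fold was 4.82 and 4.89, the Hexim1 fold 7.03 and 7.05, and the Cdk9 fold 4.52 and 4.61. The median Larp7 fold was 5.06 at long promoters, the one list with a higher median there, and 4.74 at the shorter genes. The Pol II summit lay a median of 80 bp downstream of the 5′ end in long genes and 91 bp in genes of 20 to 50 kb, and 67.1% and 74.4% of summits were downstream.

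CG content divided the promoters more sharply than length did. In the lowest of 3 equal groups by observed over expected CG (below 0.540), Pol II was at 22.5% of long genes and 36.0% of genes of 20 to 50 kb, and all 5 proteins were at 13.1% and 24.6%. In the highest group (above 0.718) Pol II was at 98.1% and 99.0%, and all 5 were at 95.9% and 92.9%. KAP1 in that group was at 97.3% of long and 94.3% of shorter genes. So the long genes were well below the shorter ones among promoters poor in CG, whereas among those rich in CG nearly all genes of both lengths were occupied.

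The longest genes showed low Pol II folds, whereas some of their other folds were high. RBFOX1 had a Pol II fold of 5.27 at its 5′ end, with KAP1 3.60, Larp7 3.58, Hexim1 4.91 and Cdk9 3.39. CNTNAP2 had a Pol II fold of 7.38, with KAP1 6.39 and Larp7 6.08. PTPRD, a receptor tyrosine phosphatase of neurons, had KAP1 5.92, Larp7 4.98, Hexim1 5.05 and Cdk9 3.44 and no Pol II peak. DLG2, a synaptic scaffold protein, had Pol II 7.94, Hexim1 5.81 and Cdk9 2.90, without KAP1 or Larp7. MACROD2 and DAB1, an adaptor of the reelin pathway, stood above these with Pol II folds of 23.4 and 65.6. MACROD2 also had Hexim1 9.37 and KAP1 6.23, and its folds of KAP1, Larp7, Hexim1 and Cdk9 were all above the upper quartile of long promoters. CSMD1, a membrane protein of the nervous system, was again low, with a Pol II fold of 4.75. Of the 6 longest genes none reached the median Pol II fold of long promoters.

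The highest folds belonged to genes of other kinds. EGLN3, a prolyl hydroxylase that marks HIF for destruction, had the highest Pol II fold of a long promoter, 155.5, with KAP1 6.42, Larp7 7.22, Hexim1 9.41 and Cdk9 6.16. STAG1, a cohesin subunit, had Pol II 142.6 and Hexim1 11.9, and HDAC4, a histone deacetylase, had Pol II 139.0 and Hexim1 10.7. The highest KAP1 folds at promoters with all 5 proteins were at UBR3, a ubiquitin ligase (10.2), MRTFA, a coactivator of SRF (9.63), MTHFD1L, a mitochondrial folate enzyme (9.34), FRMD5 (9.19) and ITSN1, an endocytic scaffold (8.53). The Pol II folds at these 5 promoters ran from 55.02 at ITSN1 to 92.4 at FRMD5.

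Promoters that departed from the full set were few. Pol II without KAP1 was found at 88 long genes (6.12%), against 8.55% over all coding genes. The highest Pol II folds among them were 97.5 at ENSG00000284989, 76.2 at DDAH1, which degrades asymmetric dimethylarginine, and 70.3 at PAM, which amidates peptide hormones. Of these 88 promoters 70.5% had Larp7, 87.5% Hexim1 and 51.1% Cdk9. The last share was 98.3% at the 995 long promoters with both Pol II and KAP1. KAP1 without Pol II was found at 39 long genes (2.71%), against 2.93% over all. ITGBL1 had the highest KAP1 fold of these (7.33), followed by PTPRD and by SYNE2, a nuclear envelope protein (5.72), and each of the 3 also had Larp7, Hexim1 and Cdk9.

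At the length threshold the values were mixed. CATSPERB (200012 bp), a sperm calcium channel subunit, and FREM2 (200055 bp), an extracellular matrix protein, were just inside it, with no list and all 5 lists at the promoter. LRCH1 (199873 bp) and FUT9 (199639 bp), a fucosyltransferase, were just outside it, both with all 5.

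Peaks were far sparser along the bodies of long genes. The body began 2 kb downstream of the 5′ end and reached to the 3′ end, leaving out bases within 1 kb of any annotated transcript start, and a peak was placed by its middle. In long genes there were 0.0976 Pol II peaks per 10 kb (0.0950 to 0.100), against 0.911 (0.894 to 0.929) in genes of 20 to 50 kb, a ratio of 0.107 (0.104 to 0.111). For KAP1 the densities were 0.100 and 0.402, a ratio of 0.249 (0.240 to 0.259). For Larp7 they were 0.454 and 1.27, a ratio of 0.358 (0.351 to 0.365). For Hexim1 they were 0.576 and 1.63, a ratio of 0.353 (0.347 to 0.360). For Cdk9 they were 0.265 and 0.825, a ratio of 0.321 (0.313 to 0.330). Pol II was thus the list whose density was lowest in long genes relative to short ones.

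Density fell with each step in length within the group as well. Pol II went from 0.139 per 10 kb in genes of 200 to 500 kb to 0.0528 in those of 500 kb to 1 Mb and 0.0301 in those of 1 Mb or longer. Hexim1 went from 0.715 to 0.457 and 0.295, and KAP1 from 0.126 to 0.0790 and 0.0462. With the 20000 highest peaks of each list the Pol II ratio of long to 20 to 50 kb genes was 0.0397. With the bases covered by peaks in place of their number, the ratios of Larp7, Hexim1 and Cdk9 were 0.223, 0.204 and 0.216.

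**Figure D2:**
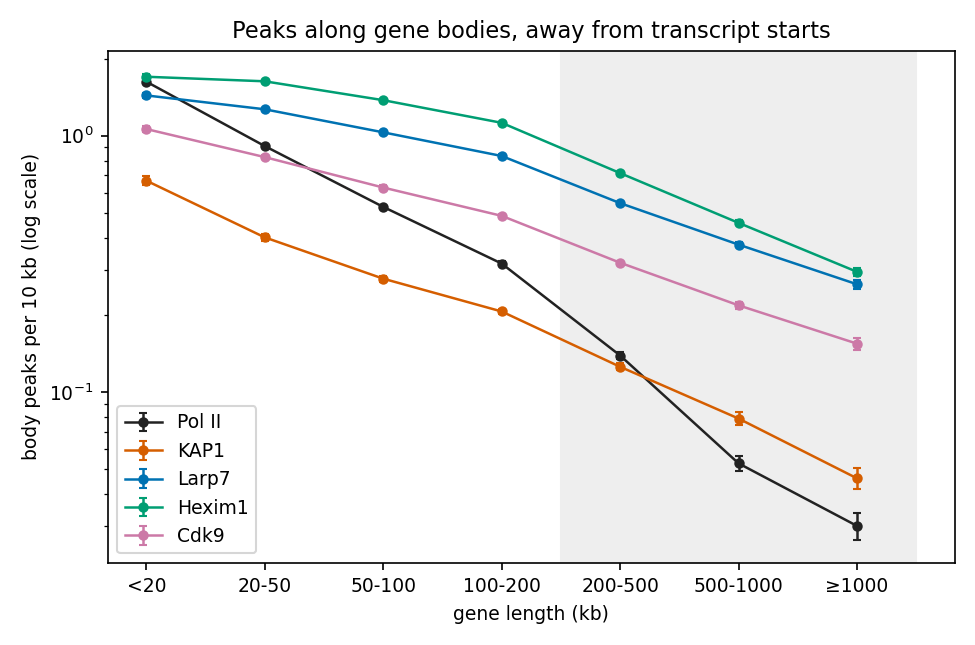
Body peaks per 10 kb (log scale) for the 5 lists by gene length in kb, pooled over the genes of each class, with exact Poisson 95% intervals; the grey area marks genes of 200 kb or longer. Pol II falls from 0.911 at 20 to 50 kb to 0.0301 at 1 Mb or longer, and Hexim1 from 1.63 to 0.295.

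The ratio was below 1 both in genes with and in genes without promoter peaks, and its size moved with them. Among genes with Pol II at the promoter the ratios of long to 20 to 50 kb genes were 0.360 for Larp7, 0.358 for Hexim1, 0.322 for Cdk9, 0.256 for KAP1 and 0.106 for Pol II. Among genes with no list at the promoter they were 0.505, 0.456, 0.484, 0.386 and 0.240. Within the long genes, those with promoter Pol II had 2.62 times (2.42 to 2.85) the Pol II body density of those without it, and 2.12 times (1.97 to 2.28) the KAP1 density. For Larp7, Hexim1 and Cdk9 this ratio was 1.51, 1.52 and 1.57. In genes of 20 to 50 kb it was 3.43 for Pol II and 1.93 for KAP1.

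Base composition moved with these densities. The median GC content of the body was 39.2% in long genes and 43.95% in genes of 20 to 50 kb. Across the 1439 long genes the rank correlation of body density with body GC content was highest for Larp7 (0.676), followed by Cdk9 (0.665), Hexim1 (0.619), KAP1 (0.580) and Pol II (0.466), as a description across genes that share 1 library. In the 5 groups of equal size by body GC content, Pol II density rose from 0.0233 per 10 kb in the 526 long genes of the lowest group to 1.38 in the 53 of the highest, and KAP1 density from 0.0277 to 1.25. The same groups of 20 to 50 kb genes went from 0.139 to 2.59 for Pol II and from 0.0246 to 1.27 for KAP1.

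Compared within these groups, the long genes stood closer to the short ones. The ratio was averaged over the groups with each group weighted by its number of long genes, from 526 in the lowest to 53 in the highest. This gave 0.858 for KAP1, 0.638 for Cdk9, 0.602 for Larp7, 0.521 for Hexim1 and 0.206 for Pol II, values set mostly by the groups of low GC content. For KAP1 the long genes were close to the shorter ones in the lowest and the 2 highest groups and below them in the others, with 0.0508 against 0.0736 per 10 kb in the second and 0.0832 against 0.146 in the third. The Pol II density of long genes was below that of shorter genes in each of the 5 groups. Taken as a ratio, the gap was widest in the lowest group, 0.0233 against 0.139 per 10 kb, and narrowest in the highest, 1.38 against 2.59.

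**Figure D3:**
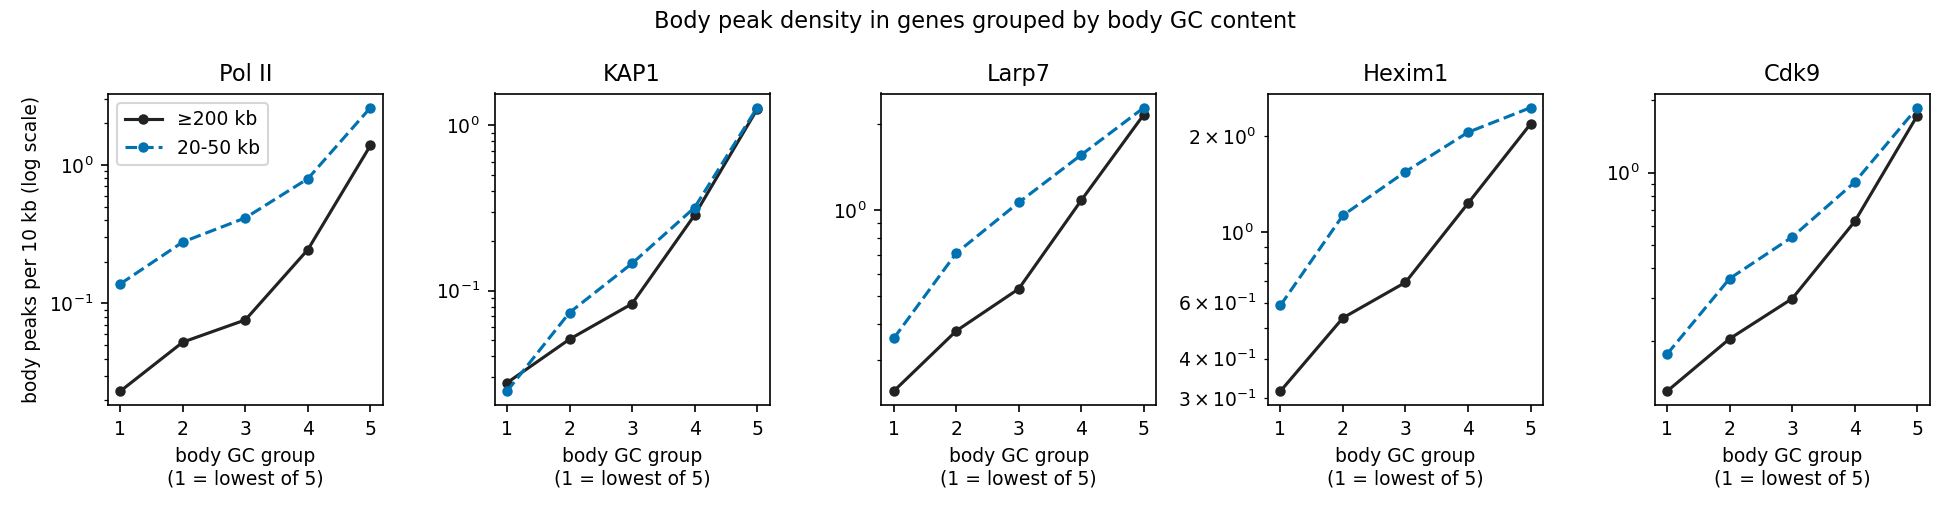
Body peaks per 10 kb (log scale) in genes of 200 kb or longer (solid) and of 20 to 50 kb (dashed), in 5 groups of equal size by the GC content of the body. For Pol II the solid line is below the dashed one throughout, 0.0233 against 0.139 in the lowest group, while for KAP1 the lines lie close together in the lowest and the 2 highest groups and apart in the third, 0.0832 against 0.146.

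The Pol II and KAP1 peaks in long bodies were concentrated in few genes. Of 5549 Pol II body peaks 50% lay in 62 long genes (4.31%), and of 5684 KAP1 peaks 50% lay in 87 (6.05%). In genes of 20 to 50 kb 50% of the peaks lay in 9.55% of genes for either list. For Larp7, Hexim1 and Cdk9 it took 19.9%, 22.2% and 17.2% of long genes, near the 22.3%, 24.7% and 17.7% of the shorter ones. The median long gene had 0.0317 Pol II and 0.0441 KAP1 peaks per 10 kb, well below the pooled values. No Pol II body peak was found in 505 long genes (35.1%), against 47.2% of genes of 20 to 50 kb and 47.95% of all coding genes with a body. KAP1 was lacking in 343 (23.8%, against 54.7% over all) and Cdk9 in 24 (1.67%, against 30.7%). Larp7 was lacking in 3 (0.21%, against 21.4%) and Hexim1 in 2 (0.139%, against 17.5%). The bodies of long genes are many times larger, and the part of body size in these shares was not tested.

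Genes among those of highest Pol II body density were rich in GC. MAD1L1, a spindle checkpoint protein, had 204 Pol II and 100 KAP1 peaks in 376.5 kb of body with 55.5% GC, and ENSG00000286192 covers almost the same bases. ANKRD11, a chromatin regulator, had 81 Pol II and 31 KAP1 peaks in 176.6 kb, and HDAC4 had 125 and 62 in 313.2 kb. PRDM16, a transcription factor of brown fat, had the highest KAP1 body density, with 110 KAP1 and 110 Pol II peaks in 349.1 kb. GSE1 had 129 KAP1 and 169 Pol II peaks in 465.2 kb. In each of these genes all 5 proteins were also at the promoter.

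Very long genes had almost none of these peaks. RBFOX1 had 3 Pol II and 5 KAP1 peaks in 2398.7 kb of body, beside 75 Larp7, 67 Hexim1 and 41 Cdk9 peaks. CNTNAP2 had 82 Hexim1, 61 Larp7 and 33 Cdk9 peaks in 2250.2 kb, with 3 of KAP1 and 2 of Pol II. LRP1B, a lipoprotein receptor family member, was the longest gene with promoter Pol II and no Pol II peak in the body, with 17 Larp7, 34 Hexim1 and 17 Cdk9 peaks in 1877.6 kb. CNTN5, a contactin, and ANKS1B were also among the longest genes of this kind. In all, 360 of the 1083 long genes with promoter Pol II (33.2%, 30.4 to 36.1) had no Pol II body peak, against 1414 of 3563 (39.7%) at 20 to 50 kb and 40.6% of all coding genes of at least 4 kb with promoter Pol II. So long genes lacked one a little less often, although their bodies were many times larger.

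**Figure D4:**
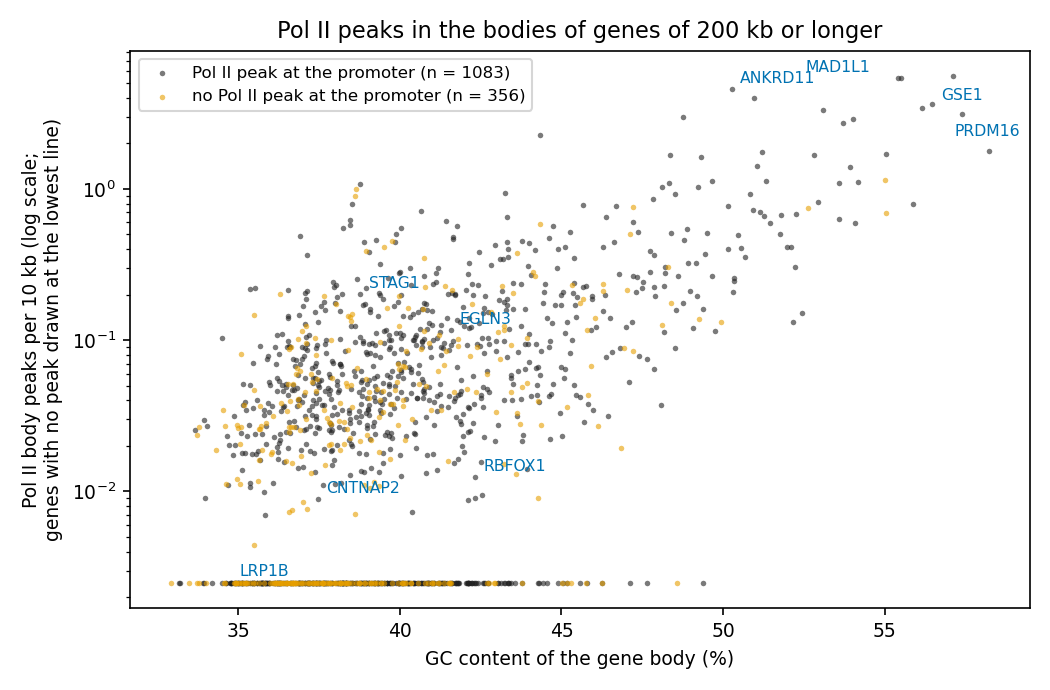
Pol II body peaks per 10 kb (log scale) against the GC content of the body (%) for the 1439 genes of 200 kb or longer, coloured by whether a Pol II peak overlapped the promoter (1083) or not (356); the 505 genes with no body peak are drawn on the lowest line. MAD1L1, ANKRD11, PRDM16 and GSE1 stand at the upper right, and RBFOX1 and CNTNAP2 near the bottom.

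Along the gene the 5 lists followed different courses. In long genes with promoter Pol II, Pol II density was 0.207 per 10 kb (n = 1080 genes) at 2 to 5 kb from the 5′ end, 0.125 at 5 to 10 kb and 0.137 at 200 to 500 kb. It was 0.0588 beyond 500 kb, where 215 genes contribute. Hexim1 fell from 0.942 at 5 to 10 kb to 0.734 at 50 to 100 kb, 0.579 at 200 to 500 kb and 0.417 beyond. Larp7 also fell, from 0.689 at 5 to 10 kb to 0.478 at 200 to 500 kb and 0.353 beyond. Cdk9 fell from 0.389 to 0.283 and 0.224 over the same bins. With peaks of −log10 q of at least 5 density was no lower at 200 to 500 kb than at 5 to 10 kb: Hexim1 was at 0.0890 and 0.0857 per 10 kb, Larp7 at 0.0667 and 0.0545, and Cdk9 had 1 peak at 5 to 10 kb. KAP1 stayed between 0.113 and 0.133 up to 500 kb and was 0.0851 beyond. For each list only 215 genes, all of at least 500 kb, contribute beyond 500 kb. Hexim1 density over the whole body of such genes was 0.508 at 500 kb to 1 Mb and 0.312 from 1 Mb. In genes of 200 to 500 kb with promoter Pol II it was 0.770. Those genes end within the bin of 200 to 500 kb, so longer genes weigh more there. So in this bin and beyond 500 kb, distance and a change of genes cannot be told apart.

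Towards the 3′ end Pol II and KAP1 density rose. Pol II went from 0.136 per 10 kb at 50 to 100 kb before the 3′ end to 0.196 at 20 to 50 kb, 0.264 at 10 to 20 kb, 0.439 at 5 to 10 kb and 0.599 in the last 5 kb. KAP1 went from 0.134 to 0.385 over the same bins. Cdk9 rose from 0.315 to 0.559, Larp7 from 0.553 to 0.821 and Hexim1 from 0.691 to 0.895. The last 5 kb thus had 4.39 times (3.82 to 5.04) the Pol II density at 50 to 100 kb, 2.87 times for KAP1 and 1.30 times for Hexim1. With peaks of −log10 q of at least 5 the rise of Larp7, Hexim1 and Cdk9 was steeper, 3.94, 3.30 and 3.18 times. The rise was also there in long genes without promoter Pol II, from 0.0655 to 0.343 for Pol II and from 0.0774 to 0.208 for KAP1, whereas Hexim1 was 0.480 and 0.459 there. With peaks of −log10 q of at least 5, Hexim1 in these genes was at 0.0613 (0.0501 to 0.0744) and 0.141 (0.0893 to 0.211). The GC content of these bases in long genes with promoter Pol II was 40.5% at 50 to 100 kb and 41.6% in the last 5 kb, and the part of GC content in the rise was not tested.

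The contrast with short genes held at equal distance. In the first 20 kb of genes with promoter Pol II, the ratio of long to 20 to 50 kb genes was 0.489 for Hexim1, 0.442 for Larp7, 0.410 for Cdk9, 0.299 for KAP1 and 0.146 for Pol II. In the last 5 kb, Pol II was at 0.599 per 10 kb in long genes and 1.66 in genes of 20 to 50 kb, and Larp7 at 0.821 and 1.36. So the lower density of long genes was present within the same distance of either end.

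**Figure D5:**
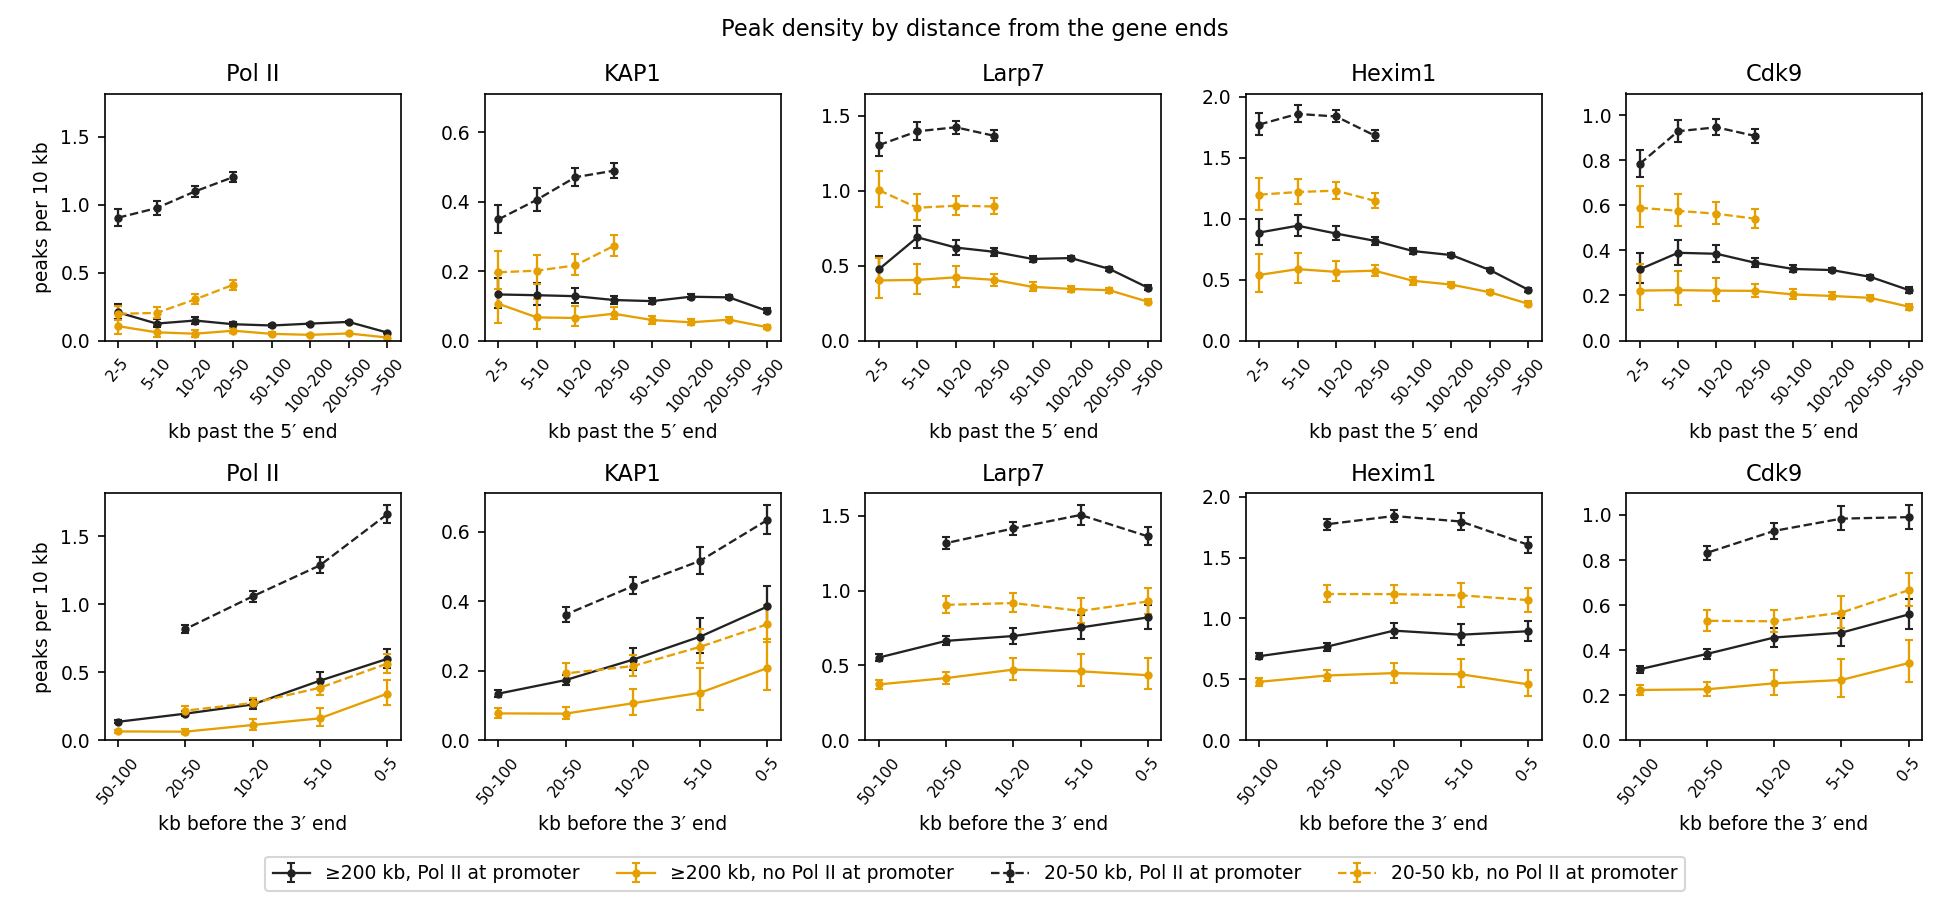
Peaks per 10 kb of the 5 lists by distance in kb from the 5′ end (upper row) and before the 3′ end (lower row), in genes of 200 kb or longer (solid) and 20 to 50 kb (dashed), with Pol II at the promoter (black) or without it (orange), with exact Poisson 95% intervals. In long genes with promoter Pol II the Pol II density rises from 0.136 to 0.599 over the last 100 kb. Hexim1 falls from 0.942 at 5 to 10 kb to 0.734 at 50 to 100 kb. It is 0.579 at 200 to 500 kb, where longer genes weigh more. Beyond 500 kb, where only 215 genes of at least 500 kb contribute, Hexim1 is 0.417.

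Peaks inside long genes gathered at annotated starts and at exons. Within 1 kb of a transcript start inside the gene, Pol II density was 0.635 per 10 kb, 6.51 times that of the rest of the body, and these 4.63% of bases held 24.0% of the Pol II peaks past the first 2 kb. The ratio was 4.76 for KAP1 and 2.48 for Cdk9, and lower for Larp7 (2.05) and Hexim1 (1.79). In genes of 20 to 50 kb it was 2.38 for Pol II and 2.61 for KAP1. Exons made up 2.07% of the long bodies and held 12.3% of the Pol II and 10.1% of the KAP1 body peaks. Peak density in exons was 6.63 times that in introns for Pol II and 5.33 times for KAP1, followed by Cdk9 (2.22), Larp7 (2.00) and Hexim1 (1.57). At 20 to 50 kb these ratios were 2.61, 2.82, 1.47, 1.19 and 0.877. Pol II and KAP1 thus had the steepest contrasts of the 5 lists in long genes, both at starts and at exons.

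Body peaks of Pol II in long genes mostly overlapped the other proteins. Counting each of the 5217 peaks once, 89.2% overlapped a Hexim1 peak, 85.0% Larp7, 69.7% Cdk9 and 59.5% KAP1, and 52.7% overlapped all 4 (51.3 to 54.0). In genes of 20 to 50 kb the share with all 4 was 38.9%, and the share with KAP1 44.5%. In the other direction 42.8% of the KAP1 body peaks in long genes overlapped Pol II, against 65.2% in the shorter genes. Larp7, Hexim1 and Cdk9 peaks were more often alone in long genes: 37.3% of Larp7, 48.2% of Hexim1 and 34.7% of Cdk9 peaks overlapped no other list, against 20.4%, 34.9% and 15.7%. The same held for KAP1 (8.70% against 3.88%) but not for Pol II (7.40% against 10.6%). Median widths in long and shorter genes were 303 and 553 bp for Larp7, 288 and 569 for Hexim1, and 287 and 450 for Cdk9. The number of peaks per 10 kb also differed between the length classes, and the part of peak number and width in these shares was not tested.

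The 300 bp around the summits of the Pol II body peaks in long genes had a median GC content of 63.7%. GGGCGG was in 35.9% of these windows, TATAAA in 3.68% and TGANTCA in 5.06%. Over all 91692 Pol II peaks the shares were 42.2%, 3.52% and 4.38%. In the 2747 windows where all 4 other lists overlapped the peak, GGGCGG was in 44.1%, and in the 386 with none of them it was in 11.7%, where the median GC content was 51.0%.

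Some stretches of long genes held no peak of any list. The longest was in RBFOX1, 733260 bp (chr16:6209416-6942675), 29.6% of the gene, with no unsequenced base in the reference and a GC content of 40.9%. The copy number of RBFOX1 in these cells was not analysed here, so a stretch without peaks and one missing from the cells cannot be told apart, which also touches its body counts. The next were 255134 bp in PARD3B, a cell polarity protein, and 230856 bp in LSAMP, a neuronal adhesion protein. Stretches of at least 100 kb occurred in 178 long genes, and the median of the longest stretch per gene was 48541 bp. No long gene lacked a peak of every list over its whole span. The RBFOX1 stretch was thus 2.87 times as long as the second.

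Groups of long genes with a known role are described by their counts, and differences between the groups were not tested. The 20 fragile site genes, with a median length of 1376166 bp, had all 5 proteins at 11 promoters and none at 5, and Pol II at 14 of 20, near the 71.8% over all coding genes. IMMP2L, a mitochondrial peptidase subunit, had the highest KAP1 fold of them (6.51) with a Pol II fold of 113.5 and no Pol II or KAP1 peak in 877.8 kb of body. The median body density of the fragile site genes was 0.0133 for Pol II and 0.0176 for KAP1, against 0.0317 and 0.0441 over all long genes. In genes of 1 Mb or longer, which are nearer to them in length, the medians were 0.0134 and 0.02575. Of 75 synapse and axon guidance genes, 49 had Pol II and 45 all 5 at the promoter, with a median Pol II body density of 0.0113. SYT1, the calcium sensor of synaptic vesicles, had a KAP1 fold of 7.35, and GABRB1, a GABA receptor subunit, of 6.66. Counted at any own start, 65 of the 75 had Pol II and 72 had Hexim1, beside 78.6% and 85.8% over all coding genes.

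Lists of signalling, adhesion and regulatory genes are given by the same counts. Of 56 long kinase and phosphodiesterase genes, 46 had Pol II and 43 all 5 at the promoter, with KAP1 folds of 7.47 at TNIK, a kinase of the Wnt pathway, 7.12 at PTK2, the focal adhesion kinase, and 6.51 at SIK3. Of 68 long adhesion, polarity and cytoskeleton genes, 60 had Pol II and 56 all 5, with KAP1 folds of 6.89 at DOCK1 and 6.39 at DOCK9, which activate small GTPases, and 6.59 at MAGI3, a junction scaffold. Of 61 long transcription and chromatin regulators, 44 had Pol II and 40 all 5, among them TCF12, TEAD1 and MED13L with KAP1 folds of 6.496, 6.32 and 6.20. Beside the 71.8% with Pol II over all coding genes, the 60 of 68 adhesion genes (88.2%) and the 46 of 56 kinase genes (82.1%) were above. The 44 of 61 regulators (72.1%) were near this level and the 49 of 75 synapse genes (65.3%) below. All 5 proteins were at 82.35% of the adhesion and 76.8% of the kinase genes, beside 61.5% over all coding genes and 67.9% of long genes. The regulators (65.6%) lay between these levels, and the synapse and fragile site lists were below both. The lists differ in median length, 371301 bp for adhesion and 952006 bp for synapse genes, and the part of length in these counts was not tested.

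A list drawn up for the super elongation complex and the 7SK particle, which also took in the SAGA subunit SUPT3H, held 4 long genes. Of these, 3 had all 5 proteins at the promoter, beside 61.5% over all coding genes. AFF1, a scaffold of the super elongation complex, had a Pol II fold of 85.5 and a KAP1 fold of 4.09. MLLT3, its chromatin reader, had 5.85 and 4.25, and SUPT3H, a SAGA subunit, had 68.6 and 3.74. The KAP1 folds of these 3 were all below the long-gene median of 4.82.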

How the data were processed

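The submitters' processing notes name Bowtie 1.1, MACS2 (without its version) and the build hg19. Which control was used, how duplicates were handled, how deeply libraries were sequenced and how peaks were called is not given in the sources used here. Behind each list stands 1 library. Pol II peaks have the narrow layout, those of the other 4 lists the broad one. Column 7 of the deposited files is the authors' fold ratio of a peak over its background, used only to describe or rank peaks within a list. The deposited −log10 p and −log10 q were used for thresholds, and the authors' summit position, a distance in bp, for Pol II only.

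Genes came from GENCODE release 44 on GRCh37, 1 model per symbol (the longest), chromosomes 1 to 22. No peak ended past a chromosome end. Sequence was read from GRCh37. Shares carry Clopper-Pearson 95% intervals, differences Newcombe intervals, densities exact Poisson intervals and ratios exact conditional intervals. With 1 library per antibody no p-value is given. Overlapping genes count a shared peak once each, except in the overlap between lists. Counting was tested on simulated data.

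The named genes were taken by length, by highest promoter fold or body density, by departures from the full set, by the length threshold, by peak-free stretch and, from each of 8 gene lists, by KAP1 fold. Some genes that meet this rule are not reported here. The members and lists were chosen with earlier results of these data known. As alternatives, peaks were restricted to a −log10 q of at least 5 or to 20000 highest, beside other promoter windows and starts, other body limits, merged peaks, covered bases, isolated genes and groups of body GC content. Python 3.11.15, numpy 2.4.6, pandas 2.3.3, scipy 1.17.1 and matplotlib 3.10.9 were used.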

Additional observations from a re-analysis of the deposited data

How the results depend on the processing

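No paired analysis was possible because each antibody has 1 library, and for the same reason no replicate was left out. Read depth is unknown and limits every list. The body density ratio of long to 20 to 50 kb genes stayed below 1 for all 5 lists under each alternative tried, whereas the differences between promoter shares changed sign with several. Where a value moved, the cause was not tested.

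With peaks of −log10 q of at least 5, the share differences at promoters were 1.97 points for Hexim1, 9.11 for Larp7, −5.31 for KAP1 and −5.17 for Cdk9. The body density ratios were then 0.292, 0.288, 0.2902 and 0.289 for KAP1, Larp7, Hexim1 and Cdk9, and 0.297, 0.294, 0.300 and 0.307 at Pol II promoters. The ratio of the last 5 kb to 50 to 100 kb before the 3′ end became 3.42, 3.94, 3.30 and 3.18 for the same lists, against 2.87, 1.49, 1.30 and 1.77 with all peaks.

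With the 20000 highest peaks of each list, in the order Pol II, KAP1, Larp7, Hexim1 and Cdk9, the share differences were −13.96, −0.0950, 5.74, −5.86 and −1.65 points. The body density ratios were 0.0397, 0.268, 0.316, 0.247 and 0.252, and at Pol II promoters 0.0387, 0.269, 0.326, 0.240 and 0.252. At any start of the gene the share differences were 6.69, 9.76, 6.001, 5.07 and 8.08 points, and for Pol II without another gene's start within 2 kb the difference was 1.46. Promoters of 500 bp on each side kept every sign.

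Within groups of body GC content the body density ratios, in the same order, were 0.206, 0.858, 0.602, 0.521 and 0.638, and at Pol II promoters 0.183, 0.829, 0.571, 0.498 and 0.601. For covered bases they were 0.0816, 0.180, 0.223, 0.204 and 0.216. With peaks within 1 kb merged they were 0.148, 0.264, 0.393, 0.396 and 0.347. In the first 20 kb at Pol II promoters they were 0.146, 0.299, 0.442, 0.489 and 0.410.

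Over 5 kb from any start, the ratios were 0.119, 0.271, 0.370 and 0.340 for Pol II, KAP1, Larp7 and Cdk9, and at Pol II promoters 0.116, 0.280 and 0.339 for Pol II, KAP1 and Cdk9. With the body from 10 kb past the 5′ end they were 0.101 for Pol II and 0.235 for KAP1. In genes that overlap no other coding gene they were 0.0974 and 0.231.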

Other observations

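The longest genes with no peak of any list at any of their own starts were EYS, CDH12 and NCKAP5, and they still held peaks in their bodies. EYS had 44 Larp7, 37 Hexim1, 16 Cdk9, 6 KAP1 and 4 Pol II peaks in 1956.4 kb. CDH12 had 22, 25, 12, 2 and 0 in 1083.7 kb, and NCKAP5 had 12, 13, 5, 2 and 1 in 866.5 kb. Over the 64 long genes of this kind, body density was 0.0185 per 10 kb for Pol II (0.0136 to 0.0245), 0.0265 for KAP1, 0.112 for Cdk9, 0.222 for Larp7 and 0.293 for Hexim1. Larp7, Hexim1 and Cdk9 over all long genes were at 0.454, 0.576 and 0.265, and Pol II at 0.0976.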
